A study of Rattus norvegicus with 28 samples.

Results

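Hepatocytes exposed to 1 nM TCDD for 24 h were compared with hepatocytes of the same animals that received the solvent DMSO alone. TCDD (2,3,7,8-tetrachlorodibenzo-p-dioxin) is the most potent of the chlorinated dioxins. The comparison consists of the 4 arrays labelled TCDD 1 nM, out of 28 arrays in the series: rats A and B, each hybridised in 2 dye orientations. On each array the RNA of the treated cells of an animal competed with DMSO RNA of the same animal. The cells were primary hepatocytes of 2 adult female Sprague-Dawley rats, plated on Matrigel and kept for 48 h in medium with insulin, transferrin, selenium and 0.1 uM dexamethasone, a glucocorticoid. Treated and DMSO cells alike therefore carried dexamethasone, insulin and 0.1% DMSO. RNA of 3 dishes was pooled for each animal and treatment, so dishes are not replicates and n is 2 animals in all that follows, unless 1 is stated. Untreated cells (no compound and no DMSO) and cells with TCDD 0.01 nM, 4 arrays each against DMSO RNA, serve below as comparisons. The remaining groups of the series received the furans TCDF (0.1 or 10 nM) or PeCDF (0.02 or 2 nM). They also enter the fit behind the standard errors and p-values. It is not stated whether 1 DMSO RNA preparation of an animal served all of its arrays, so the groups may share their controls.

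TCDD binds the aryl hydrocarbon receptor (AHR), a transcription factor held in the cytoplasm by chaperones. The bound receptor moves to the nucleus, pairs with ARNT and binds short DNA elements, the dioxin response elements, at genes of xenobiotic metabolism such as those of the cytochrome P450 1 family. TCDD is barely metabolised, so receptor activation lasts, and in rat liver it is known for induced drug-metabolising enzymes, reduced food intake, fatty change and loss of intermediary metabolism.

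Values are log2 ratios of TCDD RNA over DMSO RNA; a value of 1 is a 2-fold difference. They are listed in the order animal A with TCDD in red, animal A with TCDD in green, animal B in red and animal B in green. The fitted value is the mean of both animals with its standard error (SE) from limma, and a gene is called where the Benjamini-Hochberg adjusted p over all genes is under 0.05. The labels name separate animals, and p-values measure the spread between animals pooled over all groups of the series.

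Probes well above background made up 82.2% to 94.8% of probes in the TCDD channel of the 4 arrays. Across 34809 genes the log2 ratios of the 2 orientations of animal A correlated with r = 0.64, and across 34826 genes those of animal B with r = 0.82. The means of animals A and B correlated with r = 0.58 over 34788 genes. Between the animals, arrays with TCDD in red correlated with r = 0.52 and those with TCDD in green with r = 0.61. Arrays of opposite orientation gave 0.40 and 0.48 between the animals, so orientation, or the day of reading, also shapes the ratios. These are correlations across genes, which are not independent replicates, and the arrays of an animal share its RNA. The standard deviation of the log2 ratio over all genes was 0.171 in animal A and 0.228 in animal B, against 0.124 and 0.101 for untreated cells of the same animals. The 2 orientations were read on different days per the file headers, and each day holds both animals.

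Of 34849 genes tested, 2 of which had no usable value with TCDD 1 nM, 3677 were called with TCDD 1 nM (10.6%): 1614 were higher (4.63%) and 2063 were lower (5.92%). Most differences were small: the median log2 ratio was 0.28 among genes called higher and -0.34 among genes called lower. Only 34 genes rose and 71 fell by more than 2-fold, and 125 rose and 383 fell by more than 1.5-fold. All 4 arrays had the same sign for 1593 of the 1614 higher genes and for 2010 of the 2063 lower genes. Over all genes tested the share was 31.1%. Calls rest on the means of these same arrays, so a shared sign follows in part from the call. Among the 15178 genes with a symbol, which the gene groups below are drawn from, 795 were higher (5.24%) and 1179 lower (7.77%). Calls depend on brightness: of the 3795 brightest genes with a symbol 11.8% were higher and 18.5% lower, and of the 3795 dimmest 0.316% and 0.58%.

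The number of calls rests unevenly on the 2 animals. With animal A left out 3884 genes were called, and with animal B left out 1595. Of the 1614 genes called higher, 959 remained called without animal A and 525 without animal B; of the 2063 called lower, 1403 and 782 remained. In such a fit the lone animal is assumed to vary like the animals of the other groups.

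**Figure D1:**
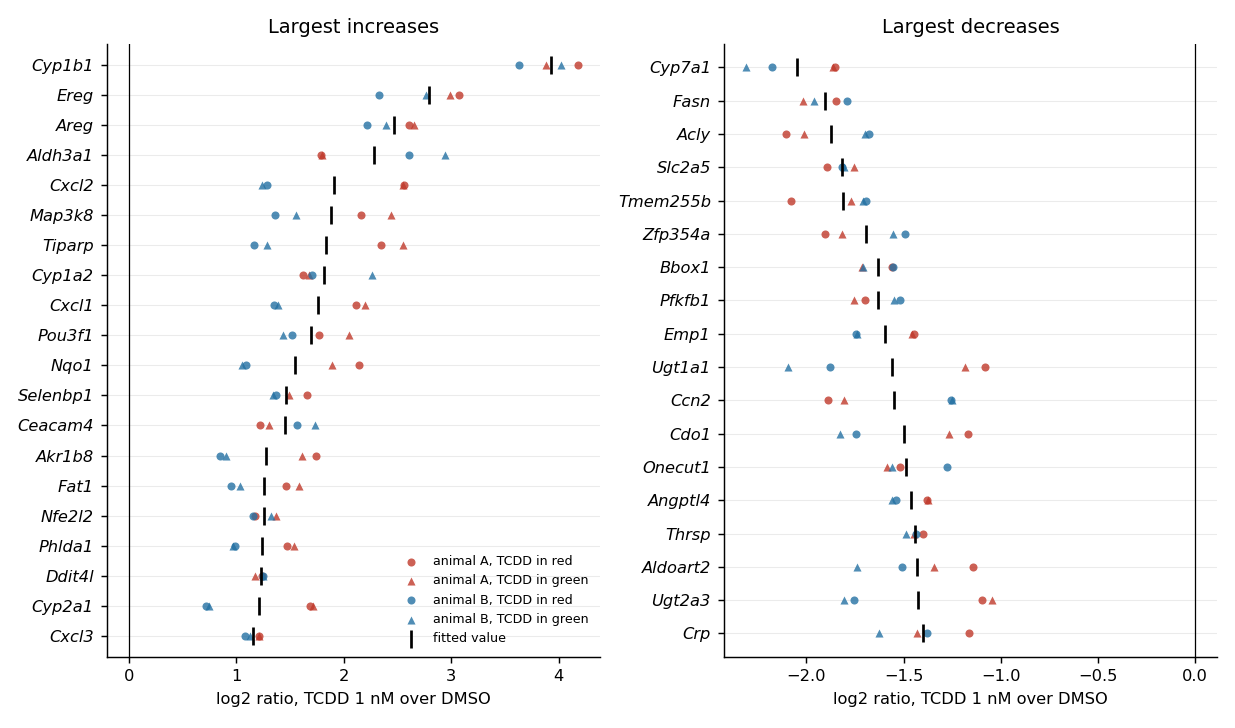
Log2 ratio of TCDD 1 nM over DMSO for the 20 largest increases (left) and 18 of the 20 largest decreases (right) among called genes with the same sign on all 4 arrays. Points are single arrays, red for animal A and blue for animal B, circles with TCDD in the red channel and triangles with TCDD in the green; the black stroke is the fitted value. Dye orientations of an animal lie close together, while Cxcl2, Tiparp and Cyp2a1 are higher in animal A and Aldh3a1 is higher in animal B.

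Genes of the classical AHR battery rose. Of 12 measured members 11 were called higher and none lower, with a median log2 ratio of 1.40, against a median of -0.01 over all genes with a symbol. Cyp1b1, a cytochrome P450 that oxidises oestradiol and polycyclic hydrocarbons, had the largest measured increase, 15.2-fold; the saturated Cyp1a1 cannot be ranked against it. Its values were 4.18, 3.88, 3.64 and 4.02, so all arrays lay within a narrow range (3.93 ± 0.15, adjusted p = 8.97e-07). A dimmer second probe for Cyp1b1 gave 1.62. Without background correction the value was 3.24.

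For Cyp1a1, the most studied AHR target, the TCDD channel was saturated on all 4 arrays and 1 spot of animal A was marked, so the fit rests on animal B. The 3 usable values were 1.54, 2.01 and 1.40, and they bound the increase at 3.08-fold or more (adjusted p = 2.40e-04). Cyp1a2, its neighbour that activates aromatic amines, had 1.62, 1.68, 1.70 and 2.26 (1.82 ± 0.12, adjusted p = 1.84e-05). The TCDD channel was saturated on 3 of these 4 arrays, so the values can understate the rise; a second probe gave 2.29.

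Aldh3a1, an aldehyde dehydrogenase of aromatic aldehydes, had 1.79 and 1.80 in animal A and 2.61 and 2.95 in animal B, a 4.87-fold rise (2.29 ± 0.36, adjusted p = 0.00282). It was higher in B on both orientations, and with animal B left out its adjusted p was 0.0785. Tiparp, a mono-ADP-ribosyltransferase that turns down AHR signalling, showed the opposite order, with 2.34 and 2.55 in A and 1.16 and 1.28 in B (1.84 ± 0.25, adjusted p = 0.00110). Nqo1, a quinone reductase, likewise had 2.14 and 1.89 in A against 1.09 and 1.05 in B (1.54 ± 0.18, adjusted p = 5.27e-04). The arrays of the 2 animals did not overlap for these 3 genes, and all 12 values lay above 1. Without background correction the fitted value for Tiparp was 1.215.

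Nfe2l2 encodes NRF2, the regulator of antioxidant genes. Its values were 1.17, 1.37, 1.15 and 1.32, alike in both animals (1.25 ± 0.09, adjusted p = 3.21e-05). The conjugating enzymes of the battery rose less. Ugt1a6, which glucuronidates small phenols, had 1.36 and 1.14 in A but 0.37 and 0.33 in B (0.80 ± 0.18, adjusted p = 0.0160). Ugdh, which makes UDP-glucuronic acid for this reaction, had 0.66 and 0.66 in A and 0.24 and 0.29 in B (0.46 ± 0.09, adjusted p = 0.0107). Gsta2, a glutathione transferase, was higher in animal B: 0.50 and 0.81 in A, 1.11 and 1.19 in B (0.90 ± 0.23, adjusted p = 0.0317). Slc7a5, a transporter of large neutral amino acids, rose by 0.22 ± 0.06 (adjusted p = 0.0451). Cyp2s1 was not called (0.04 ± 0.04). Without animal A, Ugt1a6 (adjusted p = 0.220), Ugdh (0.158) and Slc7a5 (0.218) lost their calls; without animal B, Gsta2 (0.390) and Slc7a5 (0.213) did. The battery then held 8 and 7 calls, all higher.

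The receptor itself and its partners changed little at the RNA level. Of 11 measured members of the AHR complex 1 was called, the coactivator Ncoa3, with 0.19, 0.34, 0.41 and 0.40 (0.34 ± 0.05, adjusted p = 0.00186). A second Ncoa3 probe gave 0.04, and without animal B its adjusted p was 0.0555. Ahr had 0.14, -0.10, 0.09 and 0.03 (0.04 ± 0.05), and Arnt had 0.03, -0.12, -0.22 and -0.16 (-0.11 ± 0.04, adjusted p = 0.101); neither passed the test. The chaperone Hsp90aa1 had 0.62 and 0.43 in A and 0.22 and 0.16 in B, with other probes of this gene below 0, and was not called (adjusted p = 0.220).

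The core letters of the dioxin response element, GCGTG, were sought on both strands in 300 bases of each promoter, 250 before and 50 after the start of the gene in the RefSeq table (rat build GRCr8). The core occurred in 41.7% of the 12109 tested genes with a promoter in that table and in 31.1% of all 27457 promoters. It occurred in 54.5% of 635 genes called higher and 42.0% of 967 genes called lower. The longer form TNGCGTG, which contains the core, occurred in 10.9% of the higher, 5.17% of the lower and 6.82% of all tested genes. These letters are commoner in GC-rich promoters, and the median GC content was 62.0% for the higher genes and 58.3% for all tested. Among the 4036 tested promoters poorest in GC the core occurred in 29.2% of the higher genes and 17.4% of all. Among the next 4036 the shares were 57.1% and 46.9%, and among the 4037 richest 64.1% and 60.8%, with 64.0% in the genes called lower. Of the 16 genes over 2-fold higher with a promoter in the table, 7 held the core (43.8%). A match describes letters in this window; known elements of the battery often lie further upstream, outside it.

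The upstream bases of 6 promoters whose genes were called higher are shown because they hold the core within this window; they were chosen after the search. Capitals mark GCGTG or its reverse complement CACGC. All are 250 bases that end just before the gene start, read 5′ to 3′ on the strand of the gene. Cyp1b1 lies on the plus strand (chr6:21094315-21094564), Tiparp on the plus strand (chr2:152063519-152063768), Nqo1 (chr19:52220268-52220517) and Gsta2 (chr8:88077093-88077342) on the minus strand. Areg (chr14:17265642-17265891) and Cxcl2 (chr14:17467256-17467505), both described below, lie on the minus strand of the same chromosome. Among battery genes with a promoter in the table, 7 of 10 held the core and 3 of 10 the longer form. Cyp1a2, Nfe2l2 and Cyp2s1 had no core in this window.
Cyp1b1: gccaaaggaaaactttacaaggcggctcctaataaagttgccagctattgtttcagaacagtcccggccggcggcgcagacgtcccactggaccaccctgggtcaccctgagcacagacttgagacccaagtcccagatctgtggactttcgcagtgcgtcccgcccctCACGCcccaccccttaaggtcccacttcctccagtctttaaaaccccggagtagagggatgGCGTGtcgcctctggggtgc
Tiparp: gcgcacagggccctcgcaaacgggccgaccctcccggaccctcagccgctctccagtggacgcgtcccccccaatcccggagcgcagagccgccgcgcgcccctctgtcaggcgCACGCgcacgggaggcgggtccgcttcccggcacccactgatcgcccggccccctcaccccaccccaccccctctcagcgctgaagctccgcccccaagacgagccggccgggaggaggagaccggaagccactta
Nqo1: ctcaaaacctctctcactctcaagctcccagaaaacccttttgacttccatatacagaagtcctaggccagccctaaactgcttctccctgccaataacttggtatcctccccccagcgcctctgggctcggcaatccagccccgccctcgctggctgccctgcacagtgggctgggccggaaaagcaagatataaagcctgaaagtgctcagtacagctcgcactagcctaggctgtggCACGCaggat
Gsta2: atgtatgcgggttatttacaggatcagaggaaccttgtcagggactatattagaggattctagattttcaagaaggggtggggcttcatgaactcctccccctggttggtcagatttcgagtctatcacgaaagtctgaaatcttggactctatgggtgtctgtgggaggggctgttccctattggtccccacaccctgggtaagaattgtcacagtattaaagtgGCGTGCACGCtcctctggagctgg
Areg: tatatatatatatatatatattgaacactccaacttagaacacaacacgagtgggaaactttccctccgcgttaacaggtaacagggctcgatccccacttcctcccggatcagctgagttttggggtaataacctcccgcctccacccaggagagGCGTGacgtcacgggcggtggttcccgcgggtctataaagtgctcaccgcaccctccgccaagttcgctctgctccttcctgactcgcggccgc
Cxcl2: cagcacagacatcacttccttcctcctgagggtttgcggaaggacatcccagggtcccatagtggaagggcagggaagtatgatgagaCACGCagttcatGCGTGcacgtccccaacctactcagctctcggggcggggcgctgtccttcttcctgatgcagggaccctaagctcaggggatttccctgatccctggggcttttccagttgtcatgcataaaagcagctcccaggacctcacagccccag
In Gsta2 the 2 cores abut on opposite strands, starting at -24 and -19 relative to the gene start. In Cyp1b1 they start at -81 and -20, and in Cxcl2 at -162 and -150. Nqo1 holds its core at -10, Areg at -94 and Tiparp at -136.

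Besides the battery, the largest rises were those of growth factors of the EGF receptor. Ereg (epiregulin) had 3.07, 2.99, 2.33 and 2.77, a 6.91-fold rise (2.79 ± 0.18, adjusted p = 1.19e-05). Areg (amphiregulin) had 2.61, 2.66, 2.22 and 2.39, a 5.53-fold rise (2.47 ± 0.23, adjusted p = 1.18e-04). All 4 arrays were above 2 for both ligands. Without background correction the values were 1.71 for Ereg and 1.38 for Areg. Nrg1, a ligand of the related ERBB3 and ERBB4 receptors, had 0.95, 1.00, 0.64 and 0.75 (0.83 ± 0.10, adjusted p = 7.24e-04). The ligand Tgfa was not called (0.05 ± 0.04), nor was the receptor Erbb2 (0.01 ± 0.03). Egfr, the receptor itself, was lower on all 4 arrays, between -0.17 and -0.30 (-0.25 ± 0.05, adjusted p = 0.0147); its call was lost without animal A (adjusted p = 0.124) or without animal B (0.0826). Of 14 measured ligands, receptors and regulators, 3 were higher and 1 lower. A second probe for Nrg1 gave 0.41.

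Kinase signalling genes and immediate-early genes rose in part. Of 37 measured, 9 were higher (24.3%) and 2 lower (5.41%), with a median of 0.07. Map3k8, a kinase upstream of ERK also known as TPL2, had 2.16, 2.44, 1.36 and 1.55 (1.88 ± 0.20, adjusted p = 3.05e-04), higher in animal A. Phlda1 had 1.47 and 1.54 in A and 0.99 and 0.97 in B (1.24 ± 0.21), although a second probe gave 0.15. Ier3, a stress-response gene, had 1.17, 1.21, 0.66 and 0.70 (0.93 ± 0.16), and the transcription factor Klf4 had 0.91, 0.89, 0.71 and 0.69 (0.80 ± 0.07, adjusted p = 8.28e-05). Egr1, a growth-factor response gene, rose by 0.90 ± 0.22, Atf3 by 0.57 ± 0.13 and Dusp5, a phosphatase of ERK, by 0.38 ± 0.05. The phosphatase Dusp1, a glucocorticoid target, fell instead, with -0.62, -0.72, -1.08 and -1.21 (-0.91 ± 0.11, adjusted p = 5.15e-04), and Klf10 fell by 0.59. Myc (0.27 ± 0.11) and Jun (-0.27 ± 0.08) were not called. Without animal A, 4 members were higher and 3 lower, with Phlda1 (adjusted p = 0.0711) and Ier3 (0.0576) no longer called; without animal B, 6 were higher and 1 lower. With animal A left out the adjusted p was 0.0826 for Egr1 and 0.104 for Atf3. Left without animal B, the fit gave an adjusted p of 0.242 for Egr1, 0.169 for Atf3 and 0.0843 for Klf10.

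Chemokines that attract neutrophils rose together with parts of the NF-kB system. Of 36 measured chemokines, cytokines and NF-kB genes, 14 were higher (38.9%) and 1 lower (2.78%). Cxcl1 had 2.12 and 2.20 in animal A and 1.35 and 1.39 in animal B (1.76 ± 0.22, adjusted p = 9.86e-04). Cxcl2 had 2.56 and 2.55 in A against 1.29 and 1.24 in B (1.91 ± 0.39, adjusted p = 0.0113); without animal A its value was 1.26 with an adjusted p of 0.157, and without animal B it was 2.56 (0.0202). Cxcl3 had 1.21, 1.21, 1.08 and 1.13, alike in both animals (1.16 ± 0.14, adjusted p = 5.74e-04). Nfkb1, which encodes the NF-kB subunit p50, had 1.10, 1.29, 0.70 and 0.87 (0.99 ± 0.10, adjusted p = 2.21e-04). Other probe readings were 0.53 for Nfkb1.

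Among smaller rises, Birc3, an inhibitor of apoptosis, had 0.63 ± 0.06, Cx3cl1 0.68, Ccl20 0.58, Cxcl10 0.50 ± 0.07 and the adhesion molecule Icam1 0.49. The inhibitors Nfkbia and Nfkbie rose by 0.20 and 0.22, while Nfkb2 was not called (0.03 ± 0.05). Cxcl12 fell by 0.34. Without animal A the counts were 11 higher and 2 lower, and without animal B 10 and 0. Of 24 interferon genes 2 were higher (8.33%) and 1 lower (4.17%), against 5.24% and 7.77% of all genes with a symbol. Rsad2, an antiviral enzyme, had 0.80, 0.80, 0.81 and 0.80 (0.80 ± 0.15, adjusted p = 0.00579), although without animal B its adjusted p was 0.0744. The median of the interferon list was -0.06; without animal A 4 were higher and 2 lower, and without animal B none was called. Other probes gave -0.01 for Cx3cl1, -0.06 for Cxcl12 and 0.22 for Rsad2. Leaving out animal A gave an adjusted p of 0.144 for Icam1 and 0.169 for Nfkbia. Animal B left out, the adjusted p became 0.36 for Cx3cl1, 0.288 for Ccl20, 0.143 for Nfkbia, 0.178 for Cxcl12 and 0.15 for Nfkbie.

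Other large increases were spread over unrelated functions. Pou3f1, a POU-domain transcription factor best known from Schwann cells, had 1.77, 2.05, 1.52 and 1.44 (1.69 ± 0.08, adjusted p = 1.84e-06). The value was 2.73 with Agilent's log ratio and 0.62 without background correction. Selenbp1, a methanethiol oxidase, had 1.66, 1.49, 1.36 and 1.34 (1.47 ± 0.09, adjusted p = 7.71e-06). Ceacam4 had 1.22, 1.30, 1.56 and 1.73 (1.45 ± 0.14), with 1.66 from a second probe and 0.71 without background correction. Ddit4l, an inhibitor of mTOR signalling, had 1.24, 1.17, 1.24 and 1.25 (1.23 ± 0.05, adjusted p = 9.55e-07), and Lect2, a liver-made chemotactic factor, had 0.98, 1.02, 1.07 and 1.09 (1.04 ± 0.05, adjusted p = 1.84e-06). Both were nearly the same on every array. Fat1, an atypical cadherin, had 1.46, 1.58, 0.95 and 1.03 (1.26 ± 0.14), though a second probe gave 0.45.

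Targets of NRF2 formed a mixed group. Of 24 measured, 8 were higher (33.3%) and 1 lower (4.17%), with a median of 0.16. Akr1b8, an aldo-keto reductase, had 1.74, 1.61, 0.85 and 0.91 (1.28 ± 0.18, adjusted p = 0.00148); near-identical copies of this gene exist, so its reading is uncertain. Txnrd1, thioredoxin reductase, had 0.92, 0.87, 0.66 and 0.65 (0.77 ± 0.06, adjusted p = 3.24e-05). Gclm, a subunit of the enzyme that limits glutathione synthesis, had 0.55, 0.67, 0.47 and 0.53 (0.55 ± 0.06, adjusted p = 2.33e-04), and the cystine transporter Slc7a11 rose by 0.45 ± 0.04. Sqstm1, the autophagy adaptor p62, moved in opposite directions: 0.46 and 0.36 in animal A, -0.47 and -0.52 in animal B, with a fitted value of -0.04 ± 0.15. Without animal A, 7 targets were higher and 6 lower; without animal B, 10 were higher and none lower.

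Part of the machinery that builds ribosomes rose by small amounts. Of 38 measured genes of ribosome assembly 18 were higher (47.4%) and none lower, with a median of 0.21. Heatr1, a factor of pre-rRNA transcription, rose by 0.44, Nolc1 by 0.41, the rRNA methyltransferase Nop2 by 0.40 and Dkc1, the pseudouridine synthase, by 0.33. Ebna1bp2 had 0.33, 0.20, 0.38 and 0.33 (0.31 ± 0.04, adjusted p = 0.00131), and Nop16 had 0.24, 0.18, 0.37 and 0.21 (0.25 ± 0.03, adjusted p = 8.09e-04). Nucleolin (Ncl) split by animal, with 0.40 and 0.31 in A and -0.03 and 0.00 in B, and was not called (0.17 ± 0.09). Utp14a and Ftsj3 were lower in animal B on both arrays and were not called. Without animal A 12 were higher and 2 lower, and without animal B 3 were higher and none lower. Other probe readings were 0.22 and 0.08 for Nolc1. With animal B left out the adjusted p was 0.152 for Heatr1, 0.154 for Nolc1, 0.183 for Nop2 and 0.223 for Dkc1.

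None of the 87 measured ribosomal proteins was called by limma, 12 had an unadjusted p under 0.05, and their median was 0.04. Without animal A, 4 ribosomal proteins were lower. Of 18 aminoacyl-tRNA synthetases 1 was higher (Nars1, 0.21 ± 0.05) and 1 lower (Farsa, -0.36 ± 0.04, adjusted p = 6.88e-04); without animal A none was higher and 5 lower, and without animal B none and 1. Of 9 tubulins 5 were higher and none lower: Tuba4a had 0.32, 0.42, 0.48 and 0.50 (0.43 ± 0.06, adjusted p = 0.00110), Tubb5 rose by 0.37, and Tuba1c, Tubb4b and Tubb2b by 0.29, 0.29 and 0.26. Tubulin genes are alike in sequence, so their probes may share signal. Without animal A the tubulin counts were 2 higher and 1 lower, and without animal B 6 and 0. Of 45 proteasome subunits 5 were higher and 2 lower, the latter Psmd8 and its pseudogene Psmd8-ps1; without animal A 2 were higher and 6 lower, and without animal B 2 and none. Of the 45 proteasome subunits 11.1% were higher and 4.44% lower in the fit of both animals. Among the 3795 brightest genes with a symbol, which hold 40 of the 45, 11.8% were higher and 18.5% lower. Other probes gave -0.21 for Nars1 and -0.27 and -0.19 for Tubb2b. The adjusted p without animal A was 0.0977 for Nars1, 0.0586 for Tuba1c, 0.427 for Tubb4b and 0.0766 for Tubb2b. Leaving out animal B gave an adjusted p of 0.126 for Nars1, 0.317 for Psmd8 and 0.265 for Psmd8-ps1.

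**Figure D2:**
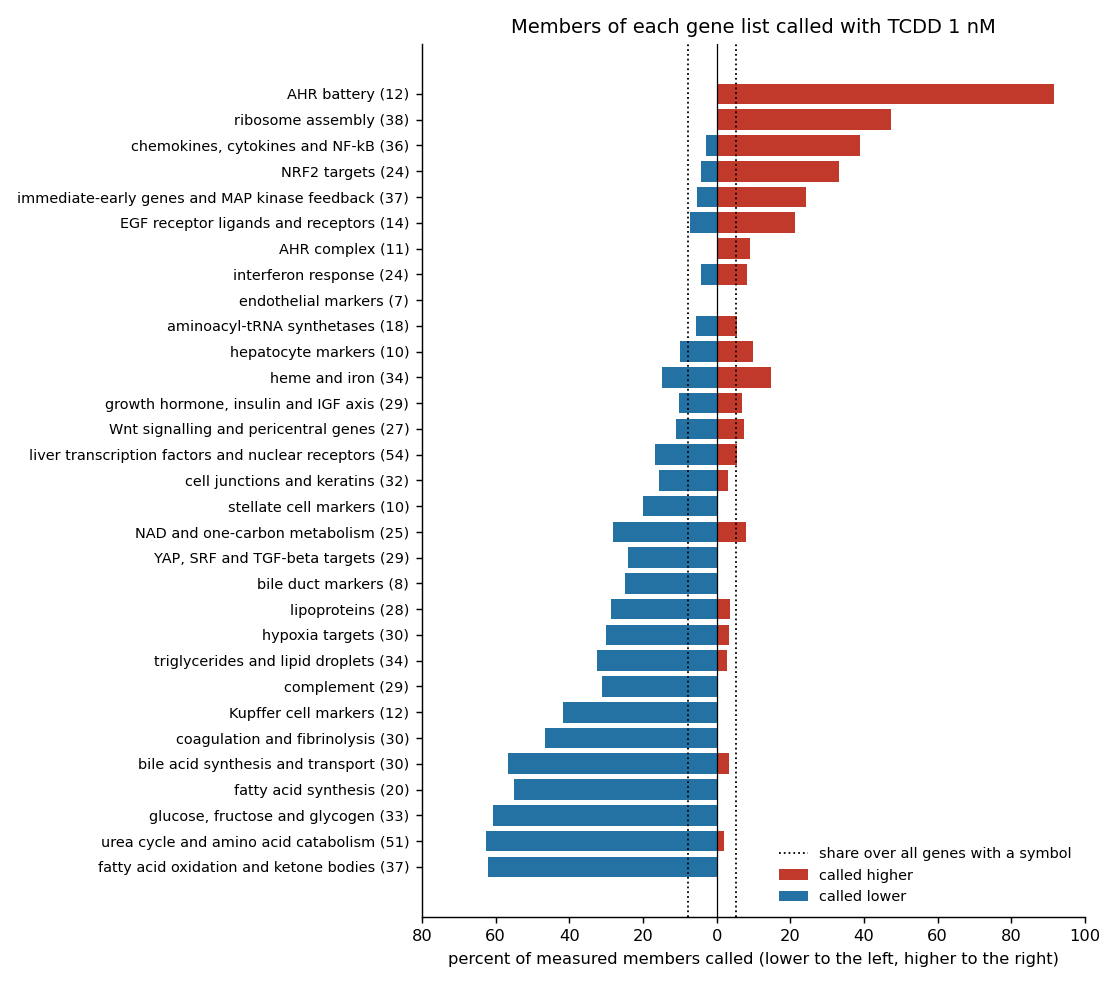
Percent of the measured members of each gene list that were called higher (red, to the right) or lower (blue, to the left) with TCDD 1 nM, with the number measured in brackets. The dotted lines mark the share over all genes with a symbol, 5.24% higher and 7.77% lower. The AHR battery and ribosome assembly have calls in the higher direction alone, and lists of liver metabolism reach above 50% lower. The lists and their members were chosen with earlier results of these data known. Bright genes were called more often, and the dotted lines are not adjusted for brightness.

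The enzymes that make fatty acids from carbohydrate carbon fell: of 20 measured, 11 were lower (55.0%) and none higher, with a median of -0.53. Fasn, fatty acid synthase, had -1.85, -2.02, -1.79 and -1.96, 3.74-fold lower (-1.90 ± 0.29, adjusted p = 0.00225), with -1.64 from a second probe. Acly, which supplies cytosolic acetyl-CoA, had -2.11, -2.01, -1.68 and -1.70 (-1.87 ± 0.15, adjusted p = 4.22e-05). Thrsp, a lipogenic nuclear protein, had -1.40, -1.45, -1.44 and -1.49 (-1.44 ± 0.18), although a second probe gave -0.15. Acaca, the carboxylase that commits acetyl-CoA to fatty acids, had -0.89, -0.98, -0.82 and -0.89 (-0.90 ± 0.06, adjusted p = 1.15e-05). Other probe readings were -0.03 for Acaca.

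The desaturase Scd fell by 0.91 ± 0.08, the citrate carrier Slc25a1 by 0.43 ± 0.07 and Srebf1, the transcription factor of this pathway, by 0.67 ± 0.07. Acss2 and the pyruvate kinase Pklr each fell by 0.98. Nr1h3 (LXR alpha, 0.06 ± 0.04), Insig1 (0.06 ± 0.10) and the elongase Elovl6 (0.35 ± 0.17) were not called. Without animal A, 9 members were lower, and without animal B, 7. A second probe for Srebf1 gave -0.41. Animal A left out, the adjusted p became 0.0615 for Acss2 and 0.0684 for Pklr. With animal B left out the adjusted p was 0.0614 for Slc25a1, 0.197 for Acss2 and 0.0998 for Pklr.

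Of 34 genes of triglyceride storage and handling 11 were lower (32.4%) and 1 higher. Lpin1, a phosphatidate phosphatase, had -0.57, -0.67, -0.73 and -0.81 (-0.69 ± 0.08, adjusted p = 3.14e-04). Plin2, the coat protein of hepatic lipid droplets, had -0.33, -0.60, -0.57 and -0.74 (-0.56 ± 0.06, adjusted p = 3.74e-04). The fatty acid translocase Cd36 fell by 0.78, the droplet protein Cidea by 0.35 ± 0.06 and the lipase Pnpla2 by 0.36, while Lpl rose by 0.30. Acsl1 (-0.38 ± 0.23) and G0s2 (-0.03 ± 0.07) were not called. Without animal A, 10 members were lower, and without animal B, 5 were lower and 1 higher. Other probe readings were 0.09 for Lpl. Left without animal A, the fit gave an adjusted p of 0.149 for Cd36, 0.0717 for Pnpla2 and 0.183 for Lpl. Leaving out animal B gave an adjusted p of 0.118 for Cd36, 0.0776 for Cidea and 0.115 for Pnpla2.

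Of 33 glucose, fructose and glycogen enzymes 20 were lower (60.6%) and none higher, with a median of -0.72. Slc2a5, the fructose transporter GLUT5, had -1.89, -1.76, -1.82 and -1.80, 3.52-fold lower (-1.82 ± 0.09, adjusted p = 4.03e-06), but -0.93 without background correction. Pfkfb1, which sets the level of fructose 2,6-bisphosphate in liver, had -1.70, -1.75, -1.52 and -1.55 (-1.63 ± 0.04, adjusted p = 1.17e-07). The arrays of both animals overlapped for Slc2a5, and those of animal A were lower for Pfkfb1.

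Enzymes of both glucose release and glucose use were among them. Slc37a4, the glucose 6-phosphate carrier of the endoplasmic reticulum, had -1.45, -1.24, -1.46 and -1.36 (-1.38 ± 0.07, adjusted p = 3.97e-06), and Fbp1, of gluconeogenesis, fell by 1.00 ± 0.05. Gckr, a regulator of hepatic glucose metabolism, had -1.16, -1.11, -1.25 and -1.30 (-1.20 ± 0.06). Glycogen synthase Gys2 fell by 1.10, the branching enzyme Gbe1 by 1.00 and Khk, fructokinase, by 0.88. The pentose phosphate enzymes Taldo1 (0.00 ± 0.05) and Tkt (-0.19 ± 0.07) were not called. Without animal A, 19 members were lower, and without animal B, 16. Animal B left out, the adjusted p became 0.655 for Gbe1.

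Of 37 fatty acid oxidation and ketone body genes 23 were lower (62.2%) and none higher, with a median of -0.38. Bbox1, the last enzyme of carnitine synthesis, had -1.56, -1.71, -1.55 and -1.71 (-1.63 ± 0.19, adjusted p = 4.70e-04). Angptl4, a secreted inhibitor of lipoprotein lipase, had -1.38, -1.38, -1.54 and -1.56 (-1.46 ± 0.09, adjusted p = 7.88e-06), and the hormone Fgf21 fell by 0.89 ± 0.06.

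Pex11a, a peroxisome proliferation factor, had -0.47 and -0.55 in animal A and -1.84 and -2.01 in animal B (-1.22 ± 0.25, adjusted p = 0.0116). The acyl-CoA dehydrogenases fell unevenly, Acadvl by 0.39, Acads by 0.38 and Acadm by 0.32, while Acadl was not called (-0.05 ± 0.05). Of 72 respiratory chain subunits 15 were lower (20.8%) and 2 higher, with Ndufv2 at -0.46 and Sdhb at -0.27. Of these 72, 67 were among the 3795 brightest genes with a symbol, of which 18.5% were lower. The share of subunits called lower was thus near that of bright genes. Without animal A, 19 oxidation genes were lower and 1 higher, and 11 respiratory subunits were lower and 1 higher; without animal B, 15 and 5 were lower. Other probes gave -0.47 for Pex11a, -0.23 for Acadvl and -0.10 for Ndufv2. With animal A left out the adjusted p was 0.223 for Acads and 0.259 for Acadm. The adjusted p without animal B was 0.169 for Pex11a, 0.435 for Acadvl, 0.105 for Acads and 0.153 for Acadm.

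Bile acid synthesis and transport fell in 17 of 30 members (56.7%), with 1 higher. Cyp7a1, the rate-limiting enzyme of bile acid synthesis, had the largest fitted decrease of the named genes: -1.86, -1.86, -2.18 and -2.31, 4.14-fold lower (-2.05 ± 0.35, adjusted p = 0.00433). The value was -2.99 with Agilent's log ratio and -0.84 without background correction, and without animal B its adjusted p was 0.0831. Acox2, the peroxisomal oxidase of bile acid side chains, had -0.75 and -0.86 in A and -1.52 and -1.72 in B (-1.21 ± 0.15, adjusted p = 6.17e-04). Nr1h4, the bile acid receptor FXR, had -0.84, -0.85, -1.25 and -1.32 (-1.07 ± 0.12, adjusted p = 3.72e-04).

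Export pumps fell too. Abcb11, the bile salt pump, fell by 0.80 ± 0.09 and Abcb4, the phospholipid floppase, had -0.82, -0.80, -0.81 and -0.93 (-0.84 ± 0.04, adjusted p = 4.80e-06). The uptake carriers Slc10a1 (NTCP) and Slco1a1 fell by 0.72 and 0.80. The basolateral pump Abcc4 rose instead, with 0.35, 0.64, 0.21 and 0.33 (0.38 ± 0.06, adjusted p = 0.00251), and Abcc2 was not called (0.03 ± 0.12). Without animal A, 15 members were lower and 1 higher, and without animal B, 11 and 2. Leaving out animal B gave an adjusted p of 0.109 for Slc10a1.

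Many genes of the urea cycle and amino acid catabolism fell. Of 51 measured members 32 were lower (62.7%) and 1 higher, with a median of -0.40, with -0.26 in the values of animal A and -0.50 in those of animal B. Cdo1, cysteine dioxygenase, had -1.17 and -1.26 in A and -1.74 and -1.83 in B (-1.50 ± 0.16, adjusted p = 2.85e-04). Glud1, glutamate dehydrogenase, had -0.72, -0.74, -1.08 and -1.01 (-0.89 ± 0.08, adjusted p = 1.18e-04).

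Of the urea cycle enzymes, Otc fell by 0.93, Arg1 by 0.85 and Cps1, its entry enzyme, by 0.84 ± 0.16. Cps1 had -0.39 and -0.57 in animal A and -1.10 and -1.30 in animal B, and without animal B its adjusted p was 0.158. Ass1 had -0.22, -0.19, -0.22 and -0.21 and was not called (adjusted p = 0.350). Cystathionine beta-synthase Cbs (-0.65 ± 0.05) and Cth, the next enzyme of transsulfuration, fell, whereas Ahcy, which clears S-adenosylhomocysteine, was the member that rose (0.63). Tat, a glucocorticoid-induced aminotransferase, was not called. Without animal A, 30 members were lower and 2 higher, and without animal B, 15 and 1. Animal A left out, the adjusted p became 0.174 for Otc. With animal B left out the adjusted p was 0.215 for Otc and 0.101 for Cth.

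**Figure D3:**
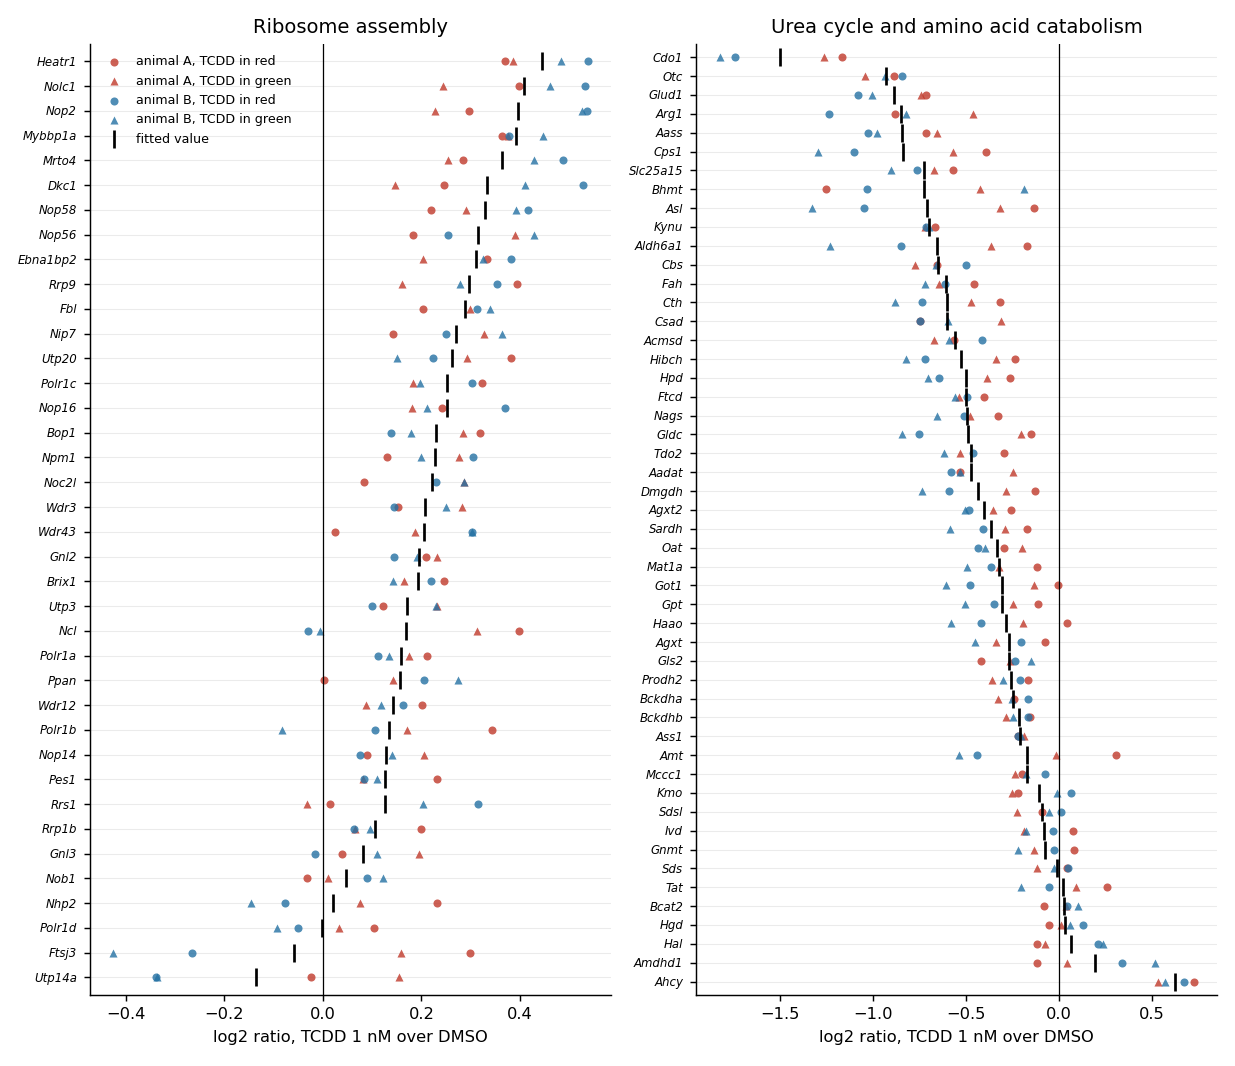
Log2 ratio of TCDD 1 nM over DMSO on each array for the 38 measured genes of ribosome assembly (left) and 50 of the 51 of the urea cycle and amino acid catabolism (right). Symbols are as in the plot of the largest changes; the 2 panels have different horizontal scales. Ribosome assembly genes lie mostly to the right of 0 at small values, and 32 of the 51 genes of the list on the right were called lower, with animal B often further from 0 than animal A.

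Of 30 measured coagulation and fibrinolysis genes 14 were lower (46.7%) and none higher. F11, coagulation factor XI, had -1.28, -1.21, -1.50 and -1.50 (-1.38 ± 0.09, adjusted p = 1.97e-05), and Klkb1, plasma prekallikrein, had -1.18, -1.10, -1.30 and -1.29 (-1.22 ± 0.09, adjusted p = 3.12e-05). Serpina5, the protein C inhibitor, had -1.28, -1.15, -1.07 and -1.10 (-1.15 ± 0.14), and antithrombin (Serpinc1) fell by 0.85. The probes used for the fibrinogen genes Fga, Fgb and Fgg were saturated in both channels on 3 or 4 arrays and give no usable ratio; the least saturated other probes gave -0.06 for Fgb and -0.17 for Fgg, still saturated on 1 TCDD and 2 DMSO arrays for Fgb and on 2 and 2 for Fgg. Without animal A, 17 were lower, and without animal B, 5. A second probe for Serpinc1 gave -0.12. Left without animal B, the fit gave an adjusted p of 0.492 for Serpinc1.

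Of 29 complement genes 9 were lower (31.0%) and none higher. Masp1, a protease of the lectin pathway, had -0.92, -0.99, -1.21 and -1.18 (-1.08 ± 0.08, adjusted p = 5.99e-05), Masp2 fell by 0.63 ± 0.07 and the lectin Mbl2 by 0.69 ± 0.10. C6, of the lytic complex, had -0.74, -0.52, -0.88 and -0.67 (-0.70 ± 0.04, adjusted p = 1.19e-05). Crp, C-reactive protein, had -1.16, -1.43, -1.38 and -1.63 (-1.40 ± 0.24, adjusted p = 0.00412), with an adjusted p of 0.0760 without animal B. Without animal A, 12 complement genes were lower, and without animal B, 4 were lower and 1 higher. Other probes gave -0.16, -0.18 and -0.16 for Masp1 and -0.30 and -0.29 for Masp2. Leaving out animal B gave an adjusted p of 0.0526 for Mbl2.

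Of 28 lipoprotein genes 8 were lower (28.6%) and 1 higher. The one that rose was Apob, the protein of very low density lipoprotein, with 0.59, 0.57, 0.47 and 0.47 (0.53 ± 0.09, adjusted p = 0.00468), from a probe saturated on 1 TCDD array. Its other 4 probes gave 0.03, 0.03, -0.01 and -0.07, and with the brightest unsaturated probe of each gene no member of the list was higher. Mttp, which loads lipid onto it, fell, with -0.48 and -0.54 in A and -0.99 and -1.08 in B (-0.77 ± 0.14, adjusted p = 0.00620), and without animal B its adjusted p was 0.155. Apoc2, the activator of lipoprotein lipase, fell by 0.61 ± 0.05. Apoa1, Apoc3 and Apoe were saturated on 2 or more arrays in each channel and read in opposite directions in the 2 orientations. Without animal A, 8 lipoprotein genes were lower and none higher; without animal B, 1 was lower and 1 higher. Animal A left out, the adjusted p became 0.0514 for Apob.

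Genes of heme and iron went both ways, with 5 of 34 higher and 5 lower. Slc11a2, an importer of ferrous iron, rose (0.61, 0.50, 0.43 and 0.41; 0.49 ± 0.08, adjusted p = 0.00257), and so did the iron-regulatory protein Ireb2 (0.48 ± 0.09). Hamp, which encodes hepcidin, fell (-0.39, -0.42, -0.55 and -0.53; -0.47 ± 0.09, adjusted p = 0.00860), as did Alas1, the first enzyme of heme synthesis (-0.28 ± 0.06). Without animal A, 1 was higher and 5 lower, and without animal B, 2 and 2. In the growth hormone and insulin axis 2 of 29 were higher (6.9%) and 3 lower (10.3%). These shares are near the 5.24% and 7.77% of all genes with a symbol. Ghr fell by 0.44 ± 0.08, Igf1 by 0.40 ± 0.06 and Stat3 by 0.25 ± 0.04, while Jak2 rose by 0.41 ± 0.07 and Trib3 by 0.42 ± 0.09. Without animal A, 3 were higher and 3 lower, and without animal B, none was higher and 1 lower. In NAD and one-carbon metabolism 7 of 25 were lower and 2 higher; Sirt3, a mitochondrial deacetylase, had -0.63, -0.56, -0.62 and -0.63 (-0.61 ± 0.06, adjusted p = 1.26e-04). Without animal A, 8 of that list were lower and none higher, and without animal B, 3 and 2. Other probes gave -0.66, -0.19 and -0.02 for Igf1 and -0.11 for Stat3. The Igf1 probe used was saturated on 1 DMSO array. With animal A left out the adjusted p was 0.0799 for Ireb2, 0.112 for Alas1 and 0.0713 for Stat3. The adjusted p without animal B was 0.144 for Hamp, 0.139 for Alas1, 0.0846 for Ghr, 0.0533 for Igf1, 0.0772 for Jak2 and 0.281 for Trib3.

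Transcription factors that define the hepatocyte changed selectively. Of 54 measured liver transcription factors and nuclear receptors 9 were lower (16.7%) and 3 higher. Onecut1 (HNF6) had -1.52, -1.58, -1.28 and -1.56, 2.80-fold lower (-1.49 ± 0.16, adjusted p = 3.46e-04), and -0.87 without background correction. Foxa1, a pioneer factor, was low on all 4 arrays (-0.91 ± 0.05, adjusted p = 4.80e-06), and the xenobiotic receptor Nr1i2 (PXR) had -0.66, -0.67, -0.62 and -0.68 (-0.66 ± 0.05, adjusted p = 3.08e-05). Foxa3 fell by 0.51 and Klf15, a factor of gluconeogenesis and amino acid breakdown, by 0.54 ± 0.07. Besides Pou3f1, Cebpd and Nr5a2 rose, by 0.62 and 0.32. Zfp354a, a zinc finger protein outside this list, had -1.90, -1.82, -1.49 and -1.55 (-1.69 ± 0.09, adjusted p = 6.05e-06). Of 167 zinc finger proteins 5 were higher and 5 lower (2.99% each), below the 5.24% and 7.77% of all genes with a symbol. Without animal A, 3 zinc finger proteins were higher and 11 lower, and without animal B none was higher and 5 lower. Of the transcription factor list, 6 were lower without animal B. Leaving out animal A gave an adjusted p of 0.0955 for Cebpd and 0.139 for Nr5a2. Animal B left out, the adjusted p became 0.544 for Foxa3 and 0.225 for Cebpd.

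In the drug-metabolising families outside the AHR battery more members were called lower than higher. Of 43 cytochromes of families 2 to 4, 14 were lower (32.6%) and 2 higher. Cyp4f4 fell by 1.10, Cyp2b3 by 0.86, Cyp2c22 by 0.81, Cyp3a18 by 0.70 and Cyp2c11 by 0.40. Cyp2a1 rose instead, with 1.68 and 1.72 in animal A and 0.71 and 0.74 in animal B (1.22 ± 0.21), as did Cyp2a2 (0.36); members of this subfamily are alike in sequence. Without animal A, no cytochrome was higher and Cyp2a1 had an adjusted p of 0.0549. With animal A left out the adjusted p was 0.0677 for Cyp2c11 and 0.221 for Cyp2a2. Left without animal B, the fit gave an adjusted p of 0.212 for Cyp2c22, 0.148 for Cyp2c11 and 0.069 for Cyp2a2.

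Glucuronosyltransferases moved in opposite directions. Of 15 measured, 8 were lower and 2 higher, the latter Ugt1a6 and Ugt1a8. Ugt1a1, the bilirubin-conjugating enzyme, had -1.08 and -1.18 in animal A and -1.88 and -2.10 in animal B, 2.95-fold lower (-1.56 ± 0.20). Ugt1a forms share their last exons, so a probe there cannot separate them. Ugt2a3 (-1.43) and Ugt2b15 (-1.14) fell too. Of 10 sulfotransferases with a value 5 were lower and none higher, with Sult1b1 at -1.05 and Sult1a1 at -0.74. Of 20 glutathione transferases Gsta2 was higher and 4 were lower, among them Mgst3 (-0.65) and Mgst1 (-0.53). Without animal B, 5 glucuronosyltransferases and 1 glutathione transferase were lower, and Gsta2 was no longer called. Other probes gave 0.04 for Ugt1a8 and -0.17 for Ugt2b15. Leaving out animal B gave an adjusted p of 0.0779 for Ugt2b15, 0.138 for Mgst3 and 0.181 for Mgst1.

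Among 338 solute carrier symbols 42 were lower (12.4%) and 16 higher (4.73%), against 7.77% and 5.24% of all genes with a symbol. The share called higher was thus near that of all genes. Symbols were counted by their first letters, which includes 4 pseudogenes and Slc7a6os, named for its overlap with a carrier gene. The rises included Slc4a4, a bicarbonate cotransporter (0.87, 0.93, 0.84 and 0.89; 0.88 ± 0.17), Slc17a3, an organic anion transporter (0.71 ± 0.10), and the amino acid carriers Slc7a1 (0.46), Slc7a11 (0.45) and Slc3a2 (0.30). Without animal A, 37 carriers were lower and 11 higher; without animal B, 16 and 9. Of 50 ABC transporters 9 were lower (18%) and 5 higher (10%), against the same 7.77% and 5.24%. Those higher were Abcb1a (0.51), Abcc5 (0.43), Abcc4 (0.38), Abca5 (0.24) and Abcc1 (0.23). Abcb1b, the other rat P-glycoprotein, fell by 0.45. Without animal B, 3 ABC transporters were lower and 3 higher. Other probes gave -0.20 for Slc7a6os and 0.01 for Slc7a1. Animal A left out, the adjusted p became 0.0587 for Slc4a4, 0.0748 for Slc7a1, 0.126 for Abca5 and 0.18 for Abcc1. With animal B left out the adjusted p was 0.308 for Slc7a6os, 0.0871 for Slc4a4, 0.114 for Abcc5, 0.219 for Abca5 and 0.764 for Abcb1b.

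Targets of other signals gave smaller counts. Of 30 hypoxia targets 9 were lower (30.0%) and 1 higher. Pdk1, a kinase that blocks pyruvate oxidation, had -0.74 and -0.60 in A and -1.46 and -1.35 in B (-1.04 ± 0.14), and Pfkfb4 had -0.59, -0.51, -0.47 and -0.58 (-0.54 ± 0.05, adjusted p = 6.30e-05). Ldha fell apart by animal, with -0.01 and -0.17 in A and -0.98 and -1.14 in B, and was not called (adjusted p = 0.108). Without animal A, 12 hypoxia targets were lower, and without animal B, 3. Of 27 Wnt and pericentral genes 2 were higher (7.41%) and 3 lower (11.1%), near the 5.24% and 7.77% of all genes with a symbol. Glul, glutamine synthetase, was not called (0.00 ± 0.04). Without animal A, 1 of the Wnt list was higher and 4 lower, and without animal B 1 and none.

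Of 29 targets of YAP, SRF and TGF-beta 7 were lower (24.1%) and none higher. Ccn2, connective tissue growth factor, had -1.89, -1.81, -1.26 and -1.25 (-1.55 ± 0.14, adjusted p = 1.08e-04), and Emp1, an epithelial membrane protein, had -1.45, -1.46, -1.74 and -1.74 (-1.60 ± 0.09), with -0.59 from a second probe. Ccn1, a close relative of Ccn2, was not called (-0.14 ± 0.06). Without animal A, 8 of this list were lower, and without animal B, 3. Of 32 junction and keratin genes 5 were lower and 1 higher: the tight junction protein Cldn1 had -0.97, -0.84, -0.87 and -0.77 (-0.86 ± 0.06, adjusted p = 3.21e-05), and Krt8 fell by 0.76 ± 0.11. Without animal A, 9 of these were lower, and without animal B, 2. The adjusted p without animal B was 0.0514 for Krt8.

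Markers of the cell types that a hepatocyte culture can hold were read beside these results. All 10 hepatocyte markers were well above background in both channels of all 4 arrays, and Alb, Tf and Fgb were saturated there. All 12 Kupffer cell, all 10 stellate cell, 5 of 7 endothelial and 7 of 8 bile duct markers were also above background in the TCDD channel of all 4 arrays. Kupffer cell markers were lower in 5 of 12: Lyz2 had -0.29, -0.54, -0.73 and -0.85 (-0.60 ± 0.08, adjusted p = 0.00114), and Vsig4, C1qc, Cybb and Cd163 lay between -0.50 and -0.32. Without animal A, 5 Kupffer markers were lower, and without animal B, 1. Cd68 (-0.11 ± 0.08), Clec4f (-0.08 ± 0.14, animal B alone) and C1qb (-0.19 ± 0.09) were not called. The median of the Kupffer list was -0.18 at 1 nM, -0.11 at TCDD 0.01 nM and -0.10 in untreated cells. Without background correction 2 of the 12 were lower, and 2 when the untreated and TCDD groups were fitted alone. Of the stellate cell markers Lox and Vim fell, by 0.91 ± 0.20 and 0.75 ± 0.10, whereas Col1a2, Col3a1 and Timp1 were not called. Bile duct markers Anxa13 (-1.36 ± 0.08) and Prom1 (-0.49 ± 0.12) fell and Sox9 (-0.06 ± 0.04) was not called; no endothelial marker was called by limma, and 2 of the 7 had an unadjusted p under 0.05. Fewer cells of a type and less RNA per cell cannot be told apart in these pooled cultures, and the part of other cells in the decreases and in the chemokine rises was not tested. Other probes gave -0.25 for C1qc, -0.04 for Cd163, -0.47 for Lox and -0.13 for Prom1. Leaving out animal A gave an adjusted p of 0.159 for Prom1, which had 0.081 without background correction. Animal B left out, the adjusted p became 0.151 for Vsig4, 0.407 for C1qc, 0.525 for Cybb, 0.711 for Cd163, 0.327 for Lox and 0.17 for Prom1.

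Values at TCDD 0.01 nM were set beside those at 1 nM. With 2 animals, a missing call at 0.01 nM does not show that a change was absent. The log2 ratios at 1 nM and 0.01 nM differed for 1303 genes (3.74%): 486 were higher and 817 lower at 1 nM. At 0.01 nM 157 of all 34849 genes were called against DMSO. Of the 34 genes that rose more than 2-fold at 1 nM, 2 were called at 0.01 nM, and of the 71 that fell more than 2-fold, none. With so few calls over all genes, few are to be looked for in sets of this size. At 0.01 nM 30 of the 34 rises and 42 of the 71 decreases had the sign they had at 1 nM. Their median log2 ratio was 1.46 at 1 nM against 0.21 at 0.01 nM for the rises, and -1.22 against -0.02 for the decreases. Over all genes called at 1 nM the difference between doses was called for 348 of 1614 higher and 776 of 2063 lower; among the 34 and 71, chosen by the 1 nM values that the difference contains, it was called for 27 and 58. These comparisons may share DMSO RNA, so each dose's own values are given side by side.

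Cyp1b1 had -0.06 ± 0.15 at 0.01 nM and 3.93 ± 0.15 at 1 nM, a difference of 3.99 ± 0.21 (adjusted p = 3.22e-05). Ereg had 0.01 and 2.79 (difference 2.78 ± 0.25, adjusted p = 3.27e-04), and Areg 0.19 and 2.47 (difference 2.27 ± 0.32, adjusted p = 0.00411). Aldh3a1 and Tiparp differed by 2.19 ± 0.51 (adjusted p = 0.0466) and 1.58 ± 0.35 (adjusted p = 0.0342). These were the 5 largest differences in the higher direction among genes whose arrays at the 2 doses did not overlap. In the lower direction they were Tmem255b (-1.90 ± 0.19), Emp1 (-1.76 ± 0.12), Zfp354a (-1.69 ± 0.13), Acly (-1.65 ± 0.21) and Onecut1 (-1.63 ± 0.23).

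For some genes the value at 0.01 nM lay in the same direction as at 1 nM. Of those in this paragraph, only Cyp1a1 and Cyp1a2 were called against DMSO at 0.01 nM. Cyp1a2 had 0.92 ± 0.12 at 0.01 nM (adjusted p = 0.00776) and 1.82 at 1 nM, a difference of 0.89 ± 0.17 (adjusted p = 0.0188) that saturation at 1 nM can shorten. Cyp1a1 had 1.71 ± 0.11 at 0.01 nM (adjusted p = 2.30e-04); because its spots were saturated at 1 nM, the doses cannot be compared for it. Nqo1 had 0.53 ± 0.18 against 1.54 (adjusted p of the difference = 0.0627), and Cyp7a1 -0.91 ± 0.35 against -2.05 (adjusted p = 0.282), so neither difference passed the test. Slc2a5 and Pfkfb1 had -0.26 and -0.10 at 0.01 nM, against -1.82 and -1.63 at 1 nM.

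Untreated cells serve as the background measured the same way. Against DMSO they had 15 called genes, and none of the 34 rises or 71 decreases above 2-fold was among them. Compared with untreated cells, in place of DMSO cells, 1396 genes were called at 1 nM (4.01%): 492 higher and 904 lower. Over all genes called against DMSO, 455 of the 1614 higher and 853 of the 2063 lower were called in that comparison too; of the 34 and 71 genes above, chosen by the 1 nM values it reuses, 32 and 63 were. This comparison carries the error of both ratios.

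**Figure D4:**
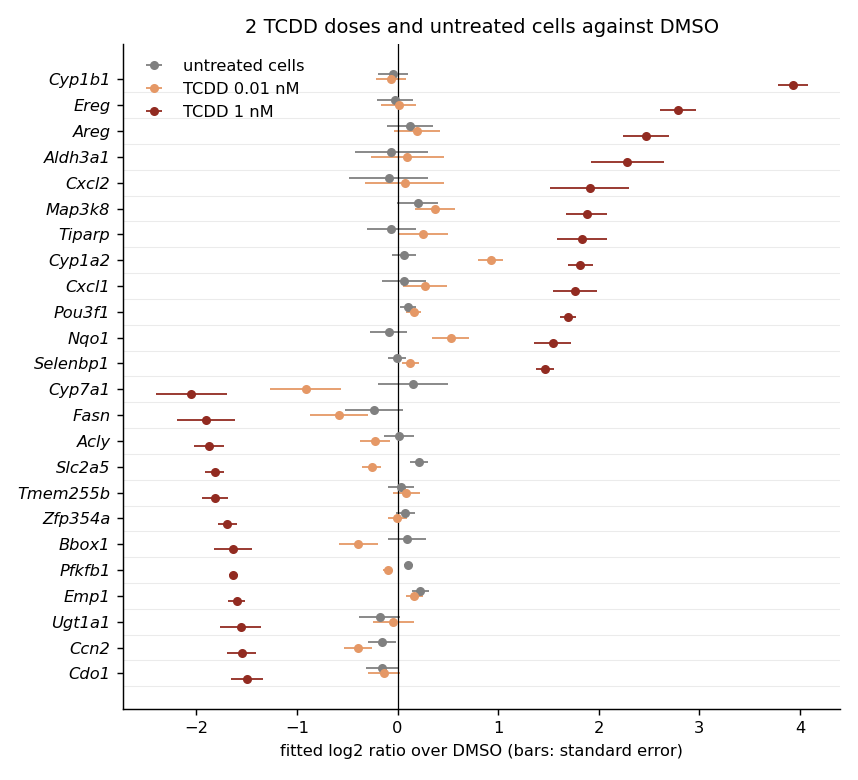
Fitted log2 ratio over DMSO of the 12 largest increases and 12 of the largest decreases at TCDD 1 nM (dark red), with the values of the same genes at TCDD 0.01 nM (orange) and in untreated cells (grey); bars are standard errors of the fit, n = 2 animals. Untreated cells lie between -0.23 and 0.22 for the 24 genes, and at 0.01 nM Cyp1a2 and Cyp7a1 are the furthest from 0 of those drawn. The genes were chosen by their values at 1 nM among those of 1 sign on all 4 arrays, which leaves out Cyp1a1, with a value on 3.

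For called genes the animals differed in size more than in direction. A call from the mean of both animals favours a shared sign, so this follows in part from the choice. Over all genes the animal means correlated with r = 0.58. Among genes called higher, 608 were further from 0 in animal A and 1002 in animal B; among those called lower, 780 and 1281. Among the rises above 2-fold the order turned, with 24 of 33 larger in animal A; these include Tiparp, Nqo1, Cxcl1, Cxcl2, Map3k8, Akr1b8 and Cyp2a1. Of the decreases above 2-fold 26 of 71 were larger in animal A. With 1 RNA pool for each animal this difference could not be tested. The median distance between the animals was 0.09 for genes called higher and 0.13 for genes called lower; between the dye orientations of 1 animal it was 0.06 to 0.09.

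A further set of genes fell in animal B alone. They were chosen after their values were seen, among 7315 bright genes whose 2 orientations lay within 0.3 of each other in each animal. Acta1, a muscle actin, had 0.11 and 0.01 in animal A and -1.74 and -1.94 in animal B. Calr, the chaperone calreticulin, had 0.08 and 0.08 against -1.47 and -1.65, and Ctnnb1, beta-catenin, had -0.07 and -0.18 against -1.53 and -1.67. C5, a complement protein, had 0.58 and 0.60 against -0.98 and -1.10, so it also rose in animal A. None was called in the fit of both animals. Averaged over the arrays, the probes used gave -0.86 for Ctnnb1 and -0.22 for C5. Other, dimmer probes gave -0.10 for Ctnnb1 and 0.16 and 0.13 for C5. In the untreated cells of animal B these 4 genes had -0.21, -0.15, -0.54 and -0.06, and with TCDD 0.01 nM 0.08, 0.09, 0.11 and 0.36. Of the 7315 genes, 21 were above 0.3 in A and below -0.3 in B, and 1 was the other way round.

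**Figure D5:**
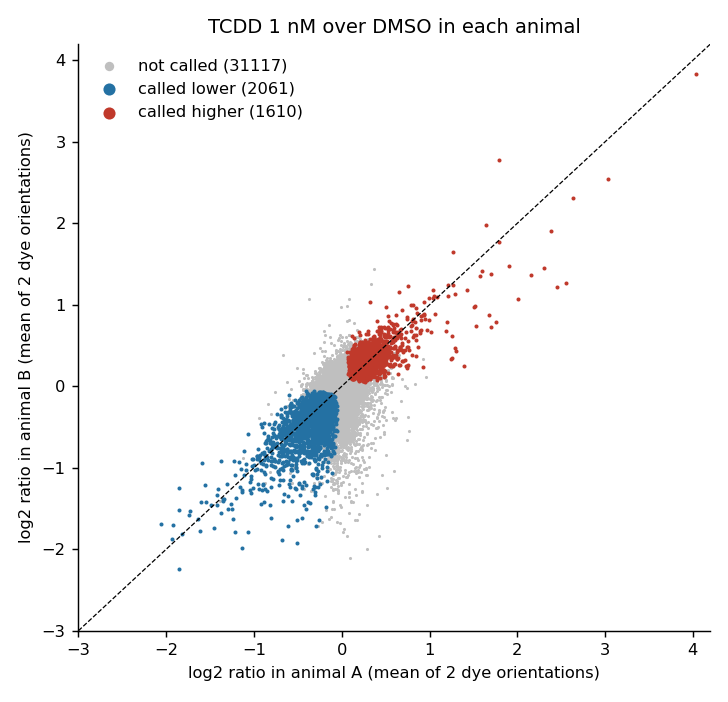
Log2 ratio of TCDD 1 nM over DMSO in animal A (horizontal) against animal B (vertical), each the mean of 2 dye orientations, for genes with a value in both animals. Genes called higher are red, called lower blue, others grey; the dashed line marks equal values. Called genes lie around the line, and a tail of grey points near 0 in animal A reaches below -1 in animal B.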

How the data were processed

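Agilent 2-colour arrays were read with Feature Extraction, version 9.1 per the submitters' processing notes; the file headers name another version. Spot and local background intensities were taken as deposited, with no normalization per the file headers. Agilent's log10 ratio, background-subtracted and dye-normalized by the authors' software per the file headers, served as an alternative, as did the deposited value table of the same log10 ratios. Here intensities were background-corrected with normexp (offset 50) and normalized with loess within each array in limma 3.58.1 (R 4.3.3), with control spots at weight 0. Marked spots were left out (80 on the 4 arrays), spots of a probe were averaged, and 37824 of 41012 probes passed a filter on dim spots. The brightest probe stood for a gene name. Symbols came from the RefSeq tables; 22469 probes had none.

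The 2 dye orientations of an animal were averaged to 1 ratio. The 14 animal ratios of 7 groups were fitted with 1 mean per group (lmFit, eBayes; 7 residual and 3.20 prior degrees of freedom), and p-values were adjusted by Benjamini-Hochberg. All p-values in the text are from this limma fit. The number of arrays limits the precision. Same-lettered samples come from the same animal, so the letters pair the groups; deviations of same-lettered samples correlated between -0.39 and 0.56 (median 0.12) over 21 pairs of groups. The fit was tested on simulated data. A gene could be named if it was among the 20 largest changes each way, among the called members of a list with the smallest p or its brightest uncalled members, in the AHR lists, or among the largest dose differences. The gene lists and the members were chosen with earlier results of these data known. Another 48 genes were named outside this rule, after their values were seen. A few genes that met this rule are not reported here.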

Additional observations from a re-analysis of the deposited data

Results flagged for a closer look

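For 6 of 333 named genes with 4 arrays, 1 array lay far from the other 3; chance alone marks about 1 in 20 such groups. Cyp1a2 read 2.26 on animal B with TCDD in green, where the others lay between 1.62 and 1.70. Abcb4 read -0.93 on the same array. The other values, each on 1 array, were -0.064 for Glul, -0.59 for Prom1, 1.17 for Ddit4l and 0.81 for Rsad2. For Ddit4l and Rsad2 the whole range was under 0.1.

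The response differed between doses for 1303 genes by limma's test of TCDD 1 nM minus TCDD 0.01 nM. The labels do not say whether both doses were hybridised against 1 DMSO preparation of each animal.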

How the results depend on the processing

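The count of 3677 called genes moved by less than 1.5 times under every setting tried except arrays as units and leaving out animal B. With arrays as units and a dye term, which counts 2 arrays of an animal as separate, 6436 genes were called (2740 higher, 3696 lower), 3626 between doses and 3463 against untreated cells. Between doses 732 were called with Agilent's log ratio and 732 with the deposited value table, and 699 when the untreated and TCDD groups were fitted alone, a fit that called 880 against untreated cells. Leaving out 1 animal gave 1595 to 3884 called genes, 586 to 1292 higher, 1009 to 2592 lower, 651 to 2386 between doses and 876 to 1928 against untreated cells. Sqstm1 had 0.41 without animal B and -0.50 without animal A. With the animal as a replicate block 3987 genes were called, and 1475 between doses; this changed no call of the genes chosen by the naming rule, or of 44 others named, to uncalled. Without background correction 52.0% of calls were higher, against 43.9%. Of 240 called genes chosen by the naming rule 202 remained called without animal A, 156 without animal B and 138 in both; of 44 called genes named outside it 25, 10 and 5 did. The naming rule favours genes with small p or large change, so its shares do not stand for all called genes. Of all called genes a smaller share remained called in both fits than of those chosen by the rule. The causes were not tested. With 2 animals, 1 RNA pool each, an animal's response and its handling cannot be told apart, and saturated spots give bounds alone.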
